A study of Mus musculus with 10 samples.

Results

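The ribosomal protein genes were described over all groups of a bulk RNA-seq series of mouse embryoid bodies. Members were the rows of the count table whose symbol has the form Rpl or Rps followed by a number and at most a short suffix. Pseudogene rows ending in -ps and the Rps6k kinases were left out. This gave 80 genes of the 23337 entries that are not spike-in controls, 48 of the large (60S) subunit and 32 of the small (40S) subunit. Enough counts for a test were found for 78 of them. The other two were Rpl26, with 2 counts over all libraries, and Rpl3l, with 43.

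Embryoid bodies are aggregates of embryonic stem cells that differentiate in suspension, and iHA-Etv2 is a line in which doxycycline switches on a tagged copy of Etv2, an ETS-family transcription factor of endothelial and blood precursors. There were 10 libraries in 5 groups of 2, each of iHA-Etv2 embryoid bodies: untreated at day 2, with doxycycline at day 2, untreated at day 2.5, with doxycycline at day 2.5, and with doxycycline at day 2.5 with the label Flk1-positive. Flk1 is the VEGF receptor encoded by Kdr. The labels do not say whether the doxycycline day 2.5 samples without that label were a sorted remainder or unsorted, nor when doxycycline was added, nor whether replicates come from separate cultures. Every p-value here therefore reflects the variation among the deposited libraries, which may be technical.

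A ribosome holds one copy of nearly every ribosomal protein, wrapped around the ribosomal RNAs, and cells keep the supply of the proteins balanced. In mammals most are each made from a single intron-containing gene, while the genome carries many processed copies of their mRNAs, most of them inactive. Their mRNAs are short, abundant in growing cells, and begin with a run of pyrimidines (the 5' terminal oligopyrimidine motif) through which nutrient signals control their translation. A few members have a second, expressed gene, such as Rpl10l and Rpl39l, best known from the testis.

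Libraries held 18074070 to 36068329 counts. Etv2 stood at 6.57 to 18.1 CPM (counts scaled to a common library size after TMM adjustment) in the 4 untreated libraries and at 255 to 507 CPM in the 6 with doxycycline. Kdr was at 405 and 433 CPM in the doxycycline day 2.5 libraries and at 1008 and 986 CPM in the Flk1-positive ones. The summed level of 5 endothelial and blood precursor genes (Kdr, Tal1, Lmo2, Cdh5, Pecam1) was 926 to 970 CPM and 2256 to 2294 CPM in these 2 groups. Pluripotency genes (Pou5f1, Nanog, Sox2) summed to 1689 to 1840 CPM in untreated day 2. They were at 826 to 855 CPM in doxycycline day 2.5 and 806 to 865 CPM in Flk1-positive libraries. Primitive streak genes (T, Mixl1, Eomes) summed to 1138 to 1164 CPM in untreated day 2 and 2465 to 2823 CPM in untreated day 2.5. Their sum was 778 to 803 CPM in doxycycline day 2.5 and 710 to 739 CPM in Flk1-positive libraries. Summed primitive erythroid genes stayed at or below 0.273 CPM, fibroblast genes at or below 39.7 CPM and leukocyte genes, which blood precursors also express, at or below 88.6 CPM. No listed marker was at 0 in every library.

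Because processed copies share their sequence, the coding sequences were compared in windows of 50 bases with every other transcript of the GENCODE M21 annotation (GRCm38). The windows below, printed from the coding strand, show what such a shared stretch is. The Rpl26 window (coding bases 79 to 128) also occurs in transcripts of 6 other annotated genes, the Rpl34 window (bases 26 to 75) in 9, the Rpl10a window (bases 108 to 157) in 3 and the Rpl8 window (bases 633 to 682) in 1.
Rpl26: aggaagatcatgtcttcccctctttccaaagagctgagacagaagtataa
Rpl34: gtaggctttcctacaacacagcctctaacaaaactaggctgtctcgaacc
Rpl10a: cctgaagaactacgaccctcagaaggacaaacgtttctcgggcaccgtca
Rpl8: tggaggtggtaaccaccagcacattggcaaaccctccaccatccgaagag

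The expressed second genes differ more from their partners. The first 60 coding bases of 3 pairs are shown with the differing bases in capitals, because their counts are compared below. Over the whole coding sequence Rpl10 and Rpl10l were 84.7% identical, Rpl39 and Rpl39l 85.0%, and Rps27 and Rps27l 76.2%.
Rpl10: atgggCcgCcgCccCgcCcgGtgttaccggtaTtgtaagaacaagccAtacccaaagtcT
Rpl10l: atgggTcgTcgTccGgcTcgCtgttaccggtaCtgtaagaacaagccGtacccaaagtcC
Rpl39: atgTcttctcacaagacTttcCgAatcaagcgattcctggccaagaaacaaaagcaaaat
Rpl39l: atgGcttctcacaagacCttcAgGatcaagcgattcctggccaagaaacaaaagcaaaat
Rps27: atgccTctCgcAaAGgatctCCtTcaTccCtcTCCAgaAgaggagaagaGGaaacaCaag
Rps27l: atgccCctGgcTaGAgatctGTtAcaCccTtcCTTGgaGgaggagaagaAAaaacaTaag

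Promoter sequences from RefSeq (GRCm38.p6) were found for 60 members, with 72 start sites. A run of at least 8 C or T on the sense strand, from 30 bases before to 50 after the start, was present at 51 starts (70.8%), against 29.0% of the 32851 starts in the same table. The letters CCGGAAG, of the kind that ETS factors bind, stood on either strand within the 300 bases of 25 starts (34.7%), against 8.86% of all. These are matches of letters, not sites shown to be bound. Both backgrounds cover starts of 27025 genes, and a comparison with the 14548 genes tested here alone was not made. The windows below run from 30 bases before to 30 bases after the start, with the longest C or T run in capitals. Rps9, Rpl28 and Rps27 show the pyrimidine run at the start, and Rpl10l, a single-exon gene, does not have one of 8 bases. In Rpl10a, not printed, the longest run began at base 18, and in Rpl39l at base -26, so neither spanned the start. The counted share includes such runs. Where a gene had several starts, the one with the longest run was taken. The printed windows lie at chr7:3704011-3704070 (+), chr7:4792935-4792994 (+), chr3:90213619-90213678 (-) and chr12:66284372-66284431 (-).
Rps9: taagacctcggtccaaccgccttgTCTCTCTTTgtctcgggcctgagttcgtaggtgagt
Rpl28: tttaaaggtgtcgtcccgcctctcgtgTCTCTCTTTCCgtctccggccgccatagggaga
Rps27: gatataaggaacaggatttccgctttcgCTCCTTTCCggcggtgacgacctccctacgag
Rpl10l: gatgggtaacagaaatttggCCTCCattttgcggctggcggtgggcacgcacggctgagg

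The counted levels of the members differed by orders of magnitude, although the proteins are needed in equal numbers. Per kilobase of mRNA, averaged over the 10 libraries, Rpl8 was highest at 2184 CPM per kb, followed by Rpl4 at 1844 and Rpl41 at 1143 CPM per kb. The lowest tested members were Rpl30 at 1.15 and Rpl39l at 1.34 CPM per kb. Rpl26 stood at 0.0110 CPM per kb, with both of its counts in the second doxycycline day 2.5 library and 0 in the other 9. Rpl26 encodes a large-subunit protein that ribosomes of every tissue contain. A count of 0 allows up to 3 counts, which is 0.0824 to 0.164 CPM over these libraries, for counting error only.

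Of the members, 29 had no coding window of their own, 29 had a share above 0 and up to 20%, 6 a share up to 50% and 15 a larger share. The median level was 19.8, 28.6, 265 and 596 CPM per kb in these 4 classes, in that order. The plot of level against the share of own windows shows that the classes overlap. Rpl41, which encodes a very small peptide of the large subunit, was high with no window of its own, and Rpl10l, Rpl39l and Rpl3l were low with most or all windows their own. Spearman's rho between share and level was 0.369 over 79 members with an annotated coding sequence, which share libraries and a gene family. The classes were chosen after the values were seen. How reads that match several genes were counted is not given in the sources used here, and its part in the levels was not tested. Exons of 8 members overlapped another gene over more than 20% of the mRNA, Rpl24 (71.5%), Rpl35 (68.3%) and Rps10 (63.6%) the most, and their counts are uncertain for that reason too.

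**Figure D1:**
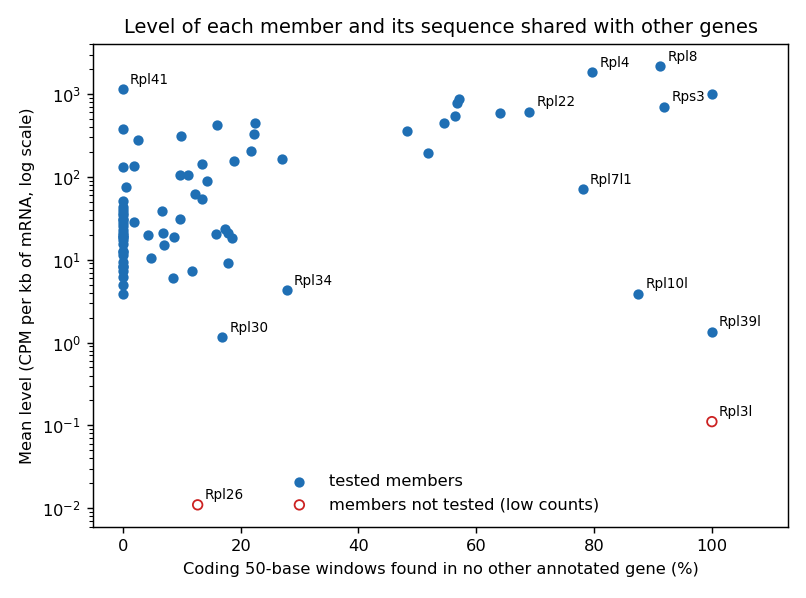
Mean level over 10 libraries (vertical, CPM per kb of mRNA, log scale) against the share of 50-base coding windows found in no other annotated gene (horizontal, %) for 79 members with an annotated coding sequence. Each point is a gene, and open circles are Rpl26 and Rpl3l, which were not tested. Members near 0% run from 3.89 to 1143 CPM per kb, and Rpl8, Rpl4 and Rps3 lie at the upper right.

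Together the members took 1.25 to 1.96% of all counts. The share was 1.60 and 1.70% in untreated day 2 (1.65% ± 0.0706, SD, n = 2) and 1.38 and 1.39% in untreated day 2.5 (1.39% ± 0.00708, SD, n = 2). It was 1.31 and 1.25% in doxycycline day 2.5 (1.28% ± 0.0408, SD, n = 2) and 1.41 and 1.34% in the Flk1-positive group (1.37% ± 0.0525, SD, n = 2). The doxycycline day 2 pair was the odd one, at 1.96 and 1.38% (1.67% ± 0.410, SD, n = 2), which are the highest share and one of the lower ones within a single group. The 95% exact binomial intervals were 1.95 to 1.96% and 1.37 to 1.38%, so counting error is far smaller than the gap. Both untreated day 2 libraries lay above both libraries of each day 2.5 group. An exact permutation test of 2 libraries against 2 cannot reach p under 0.333, so no test of the shares was made. In bulk samples fewer cells of a type and less RNA per cell cannot be told apart.

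A few genes made up much of the sum. Rpl4, whose protein lines the exit tunnel of the large subunit, took 15.9 to 23.0% of the members' counts. Rpl4, Rpl8 (at the peptidyl transferase centre) and Rps3 (at the mRNA entry channel of the small subunit) together took 36.7 to 46.0%. Rpl4 was at 2733 and 2748 CPM in untreated day 2, 3218 and 3058 in doxycycline day 2, 3155 and 3035 in untreated day 2.5, 2779 and 2871 in doxycycline day 2.5 and 2313 and 2443 CPM in Flk1-positive libraries. The level of the middle member was 26.4 and 27.8 CPM in untreated day 2, 33.1 and 22.2 in doxycycline day 2, 20.3 and 21.3 in untreated day 2.5, 18.6 and 18.1 in doxycycline day 2.5 and 37.3 and 31.3 CPM in Flk1-positive libraries. Measured gene by gene, as log2 CPM against each gene's own mean over the libraries, the members' median was 0.17 and 0.25, 0.46 and -0.06, -0.14 and -0.08, -0.33 and -0.44, and 0.06 and -0.04 in the same order. The 2 measures rank the Flk1-positive and untreated day 2 libraries in opposite order, so the level of the middle gene is not the change of a typical one.

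**Figure D2:**
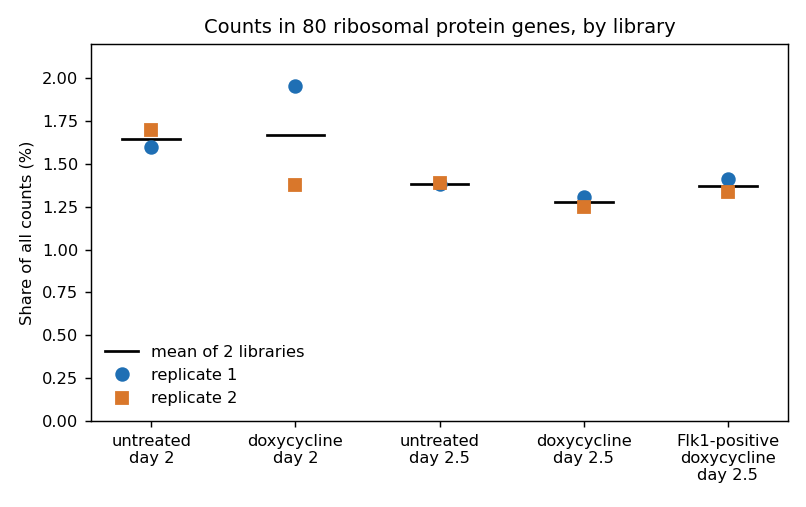
Share of all counts in the 80 ribosomal protein genes (vertical, %) for each of the 10 libraries, by group, with circles for replicate 1, squares for replicate 2 and a line at the mean of the 2. The doxycycline day 2 libraries sit at 1.96 and 1.38%, farther apart than any other pair.

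At day 2, no member passed the test between doxycycline and untreated embryoid bodies. Changes were tested in edgeR with its quasi-likelihood test over all 14548 genes with enough counts, at a Benjamini-Hochberg adjusted p under 0.05. By that rule 3.11% of all genes were higher and 1.56% lower, and 0 of 78 members were either. At an unadjusted p under 0.05, 8 members were higher and 1 lower, and DESeq2 and limma-voom also called 0. Groups did not overlap for 12 members that were higher and 2 that were lower, beside 22.4 and 20.4% of all genes. The median member's log2 fold change was 0.01, against 0.00 over all genes. That near-zero median joined a pair that disagreed. Without the second doxycycline day 2 library the members' median was 0.29, and without the first it was -0.32.

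The difference within that pair followed transcript length. From the first to the second library the median member changed by -0.57 (log2 CPM), and 71 of 78 members were lower in the second. The members' main transcripts are short, with a median of 774.5 bases (345 to 5130), against 2848 bases for the 14325 other tested genes with a length. Other genes under 700 bases had a median difference of -0.52, those of 700 to 1000 bases -0.33, those of 1000 to 2000 bases -0.23, those of 2000 to 4000 bases -0.02 and those over 4000 bases 0.22. The members' median lay beyond that of every class of other genes, closest to the class under 700 bases. Spearman's rho between length and difference was 0.484 over these 14325 genes in this pair, and from -0.099 to 0.11 in the other 4 pairs. Over the 78 members it was 0.219 in this pair. In those the members' median difference was 0.04 (untreated day 2), 0.05 (untreated day 2.5), -0.11 (doxycycline day 2.5) and -0.12 (Flk1-positive). The libraries' RNA quality is not given in the sources used here, and its part was not tested.

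**Figure D3:**
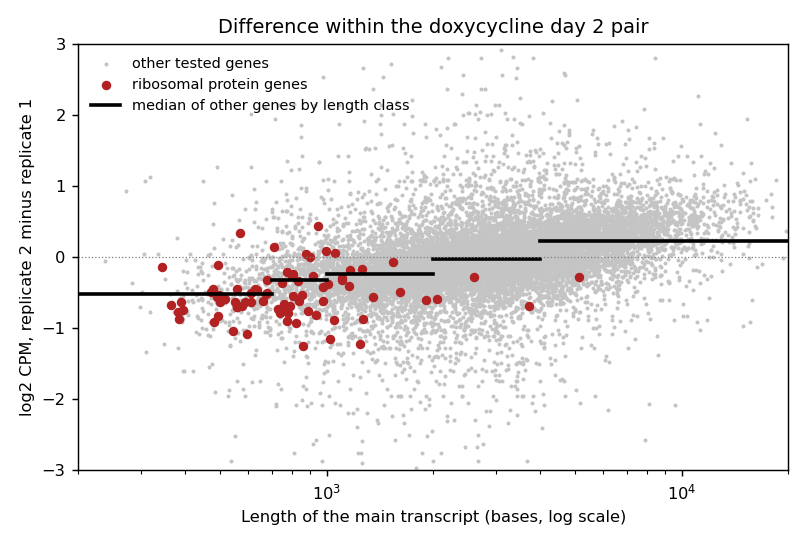
Difference in log2 CPM between replicate 2 and replicate 1 of the doxycycline day 2 group (vertical) against the length of the main transcript (horizontal, bases, log scale), with members in red, other tested genes in grey and lines at the median of other genes in each length class. The members' median is -0.57, and 103 of 14403 genes, none of them a member, lie outside the axes.

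Between day 2 and day 2.5 without doxycycline, 24 of 78 members fell (30.8%) and 4 rose (5.13%), against 10.3 and 9.22% of all genes tested. The members' median log2 fold change was -0.29, against -0.02 over all genes. The fall was seen in both subunits, with 13 of 46 large-subunit and 11 of 32 small-subunit members called. Groups did not overlap for 51 members that were lower and 13 that were higher, where 34.9 and 30.8% of all genes had such an order. With the trend on transcript length removed from every library, 23 fell and 10 rose, beside 1970 and 1828 of 14548 genes. The members' median was then -0.17. Fewer members fell when any library of either untreated group was left out, the fewest without the second untreated day 2.5 library. Calls of falls over all genes dropped in the same fits, and whether the members lost a larger part of theirs was not tested. Without either doxycycline day 2 library more members rose, as did more of all genes.

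Rps14, on the platform of the small subunit, was at 308 and 310 CPM at day 2 and 143 and 124 CPM at day 2.5, where it fell by 1.21 ± 0.25 (log2, SE; edgeR adjusted p = 0.00715). Rps2, near the mRNA entry site, was at 636 and 753 CPM and then at 416 and 218 CPM, a fall of 1.13 ± 0.24 with libraries of unequal level at day 2.5. Rpl10, which joins the large subunit in one of its last assembly steps, went from 24.1 and 21.0 to 11.4 and 11.4 CPM (-0.98 ± 0.16, edgeR adjusted p = 0.0009). The Rpl10 call held in all 19 alternatives run. The Rps14 call was lost without the second untreated day 2.5 library (-1.11, adjusted p = 0.0758). The Rps2 call was lost with the length trend removed (-1.02, adjusted p = 0.0914), in a fit of the compared groups alone (-1.11, adjusted p = 0.143), and without the second untreated day 2 library (adjusted p = 0.0619) or either doxycycline day 2 library (-1.13 each, adjusted p = 0.0863 and 0.0864).

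Rpl29 and Rps6 were among the 4 members that rose. Rpl29 (chr9:106429454-106431568, +, GENCODE M21), a small large-subunit protein also known as a heparin-binding protein, was at 15.9 CPM in both day 2 libraries and at 27.8 and 33.2 CPM at day 2.5 (0.94 ± 0.14, edgeR adjusted p = 0.000566). Day 2 and day 2.5 libraries did not overlap for Rpl29, and its call held in all 19 alternatives run. Rps6, the substrate of the ribosomal S6 kinases, was at 12.1 CPM in both day 2 libraries and at 16.0 and 20.8 CPM at day 2.5 (0.61 ± 0.16, edgeR adjusted p = 0.0143). The Rps6 call was lost without the first or second untreated day 2 library (adjusted p = 0.0991 and 0.0968) and without the second untreated day 2.5 library, where the change was 0.40 (adjusted p = 0.185).

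With doxycycline at day 2.5, 10 of 78 members were lower than in untreated embryoid bodies (12.8%) and 1 was higher (1.28%). Over all genes 13.8% were lower and 16.1% higher, so in this fit the share of falls was near the background and that of rises below it. In fits of the compared groups alone and without the filter on low counts, the members' share of falls was above that over all genes. The same held, by less, with DESeq2, with TMM factors computed without the members and with a replicate block. The median member stood at -0.25 (log2), against 0.00 over all genes, and 69 of 78 members had a negative fold change. The groups did not overlap for 48 members that were lower and 3 that were higher, beside 34 and 34.9% of all genes. Fewer members fell without the first untreated or the second doxycycline day 2.5 library, and more without either doxycycline day 2 library. Calls of falls over all genes moved the same way in these fits. The 1 rise was lost without the second untreated or the first doxycycline day 2.5 library. Removing the length trend gave 14 falls, beside 2776 of 14548 genes, and a median of -0.15.

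Rps12, a small-subunit protein, was at 10.01 and 8.83 CPM untreated and 4.04 and 4.01 CPM with doxycycline, and it fell by 1.22 ± 0.24 (log2, SE; edgeR adjusted p = 0.00102). Rpl7l1, a relative of Rpl7 found in precursors of the large subunit, went from 198 and 202 to 135 and 142 CPM (-0.53 ± 0.10, edgeR adjusted p = 0.000697). These were the 2 calls of this comparison that held in all 19 alternatives. Rps12 had no coding window of its own. Rpl35, at the opening of the exit tunnel, went from 8.05 and 8.74 to 2.31 and 4.48 CPM (-1.31 ± 0.31, edgeR adjusted p = 0.00475). Without the first doxycycline day 2.5 library the Rpl35 change was -0.94 (adjusted p = 0.0622), and 68.3% of its mRNA overlaps another gene.

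Rpl5 and Rpl11 form the 5S particle with 5S ribosomal RNA, which also binds the p53 regulator Mdm2 when free of ribosomes. Both were lower with doxycycline at day 2.5. Rpl5 went from 7.05 and 7.25 to 5.55 and 3.44 CPM (-0.67 ± 0.24, edgeR adjusted p = 0.0489), and Rpl11 from 12.3 and 14.3 to 8.84 and 9.47 CPM (-0.54 ± 0.18, edgeR adjusted p = 0.0350). Neither gene had a coding window of its own, and neither call was firm. Rpl5 was at -0.37 (adjusted p = 0.389) without the second doxycycline day 2.5 library, and lost the call in 6 other omissions, of either library of untreated day 2, untreated day 2.5 or Flk1-positive (adjusted p = 0.0526 to 0.167). Rpl11 lost it when any of the 4 compared libraries was left out (adjusted p = 0.0599 to 0.218). Rpl3, at the peptidyl transferase centre, went from 19.8 and 17.0 to 12.3 and 11.7 CPM (-0.61 ± 0.16, edgeR adjusted p = 0.00955), and lost its call without the first untreated or the second doxycycline day 2.5 library (adjusted p = 0.105 and 0.0762).

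Of the comparisons made, the Flk1-positive one had the most members called. Against the other doxycycline libraries of day 2.5, 32 of 78 members were higher (41%) and 8 lower (10.3%), while 20.5% of all genes were higher and 21.3% lower. The members' median log2 fold change was 0.31, against 0.00 over all genes. Higher calls were 22 of 46 in the large and 10 of 32 in the small subunit, and lower calls 6 and 2. Groups did not overlap for 51 members that were higher and 15 that were lower, beside 37.5 and 38% of all genes. The count of higher members lay between 26 and 43 over all alternatives, and 27 of the 40 calls held in every one. The median with the length trend removed was 0.19. Fewer members were lower without either doxycycline day 2.5 library or without the second Flk1-positive one, and so were fewer of all genes.

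Rpl3 (chr15:80077791-80091868, -) was at 12.3 and 11.7 CPM in the doxycycline libraries and at 51.0 and 49.4 CPM in the Flk1-positive ones, a rise of 2.06 ± 0.16 (log2, SE; edgeR adjusted p = 1.82e-07). Rpl10 (chrX:74270812-74273135, +) went from 9.997 and 9.617 to 42.9 and 33.7 CPM (1.97 ± 0.16), and Rpl10a (chr17:28328471-28331033, +), of the mobile L1 stalk, from 24.7 and 22.8 to 127 and 97.5 CPM (2.24 ± 0.19, edgeR adjusted p = 9.99e-07). Within each of these genes both Flk1-positive libraries lay above all 8 others. Rps13 rose by 2.46 ± 0.32, from 1.07 CPM in both libraries to 6.15 and 5.62 CPM. Rpl34, with the largest fold, rose by 2.69 ± 0.51 from 0.796 and 0.231 to 4.38 and 2.28 CPM, and rests on 29 and 8 counts against 106 and 43. The 5 calls held in all 19 alternatives. For both members of the 5S particle the direction was the reverse of the doxycycline comparison: Rpl5 rose by 1.42 ± 0.24 and Rpl11 by 1.05 ± 0.18. The 2 comparisons share the doxycycline day 2.5 libraries, so a low value there enters both.

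Other members were lower in the Flk1-positive libraries. Rpl29 went from 31.0 and 26.7 to 12.0 and 11.8 CPM (-1.28 ± 0.14, edgeR adjusted p = 5.55e-06). Rpl14, also of the large subunit, went from 345 and 343 to 241 and 214 CPM (-0.60 ± 0.12, edgeR adjusted p = 0.00092). Both calls held in all 19 alternatives. Rpl29, which rose between the untreated days, lay below its untreated day 2 values in the Flk1-positive libraries. Rpl4, the most counted member, was 0.25 ± 0.08 lower (edgeR adjusted p = 0.0172), a call lost without the first Flk1-positive library (-0.20, adjusted p = 0.146) or without the first or second doxycycline day 2.5 library (adjusted p = 0.0754 and 0.133).

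Higher calls in this comparison were also counted by the share of a member's own sequence. Of the 29 with no coding window of their own 18 were higher, of the 28 tested in the next class 11, then 2 of 6, and 1 of the 14 with more than 50%. The median log2 fold change in the 4 classes was 0.69, 0.45, 0.19 and 0.02. Spearman's rho was -0.37 between share and change over 77 members, and -0.301 between level and change over 78, with all members read from the same 4 libraries. Between the untreated days the medians were -0.22, -0.46, -0.07 and -0.30, with no such order. These classes were set after the values were seen, and no test was made. How much of the rise comes from reads of other genes with the same sequence was not tested.

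**Figure D4:**
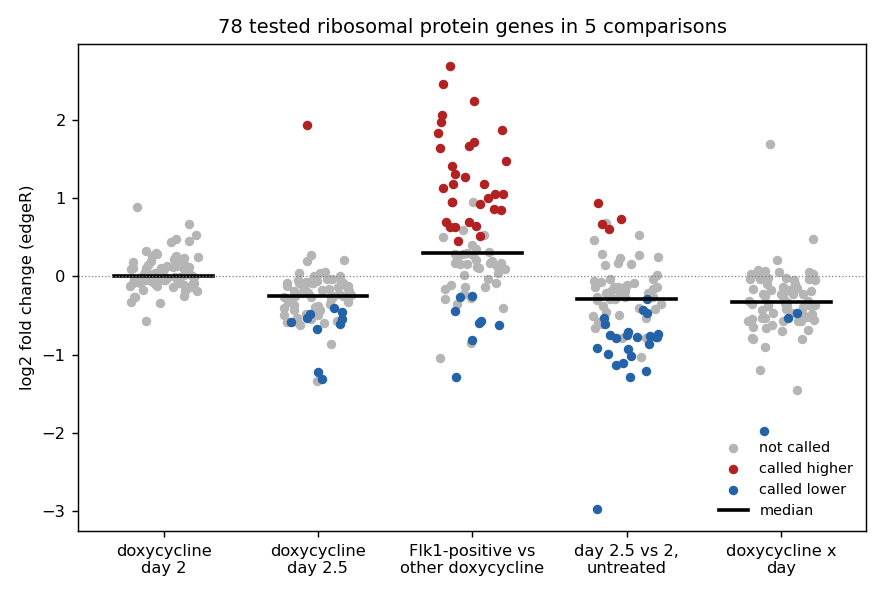
Log2 fold change of each of the 78 tested members (points) in 5 comparisons, with the median as a line and members that passed edgeR's test at an adjusted p under 0.05 in red (higher) or blue (lower). The Flk1-positive comparison reaches 2.69 and has 32 red points, and doxycycline at day 2 has none of either colour.

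The effect of doxycycline differed between the days for 3 members, all more negative at day 2.5. The interaction term was called lower for 3.85% of members and higher for 0 of them, against 5.24 and 6.87% of all genes. At an unadjusted p under 0.05, 18 members were lower and 1 higher in edgeR. DESeq2 called 5 lower and limma-voom 4, beside 900 and 806 of 14548 genes, and neither called any member higher. Rpl35 was at 3.94 and 6.60 CPM untreated and 7.03 and 9.58 CPM with doxycycline at day 2, the opposite order to that at day 2.5, and its term was -1.98 ± 0.44 (log2, SE; edgeR adjusted p = 0.00837). The Rpl35 term lost its call without the first untreated day 2 library (-1.64, adjusted p = 0.0587). Rpl23, whose protein also binds Mdm2, had a term of -0.53 ± 0.13 (adjusted p = 0.0178), and Rpl7l1 one of -0.47 ± 0.14 (adjusted p = 0.0370). The Rpl23 call was lost with the length trend removed and without the first untreated library of either day or the second doxycycline day 2.5 library (adjusted p = 0.0718 to 0.125). That of Rpl7l1 was lost without any library of these 3 groups (adjusted p = 0.0850 to 0.151). The number of lower calls changed with the library left out, among the members and over all genes. The median term over the members was -0.32, but it turned to 0.04 without the first doxycycline day 2 library. No statement on the direction of the family as a whole can be made from this term.

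The second genes were set beside their partners. Rpl10l fell between the untreated days, from 6.11 and 7.64 to 2.22 and 3.40 CPM (-1.28 ± 0.36, edgeR adjusted p = 0.0225), as Rpl10 did. In Flk1-positive libraries Rpl10l was at 1.12 and 1.48 CPM against 1.95 and 2.71 CPM (-0.85 ± 0.41, edgeR adjusted p = 0.109), while Rpl10 rose. The Rpl10l fall lost its call when either library of either untreated group was left out (adjusted p = 0.0650 to 0.160).

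Rpl39l was rare throughout. Its counts were 35 and 35 in untreated day 2, 51 and 33 in doxycycline day 2, 7 and 3 in untreated day 2.5, 37 and 22 in doxycycline day 2.5 and 16 and 12 in Flk1-positive libraries. It fell between the untreated days (-2.97 ± 0.61, edgeR adjusted p = 0.00408) and was the only member called higher with doxycycline at day 2.5 (1.93 ± 0.62, edgeR adjusted p = 0.0274). Both rest on the 10 counts of untreated day 2.5. Without the second of those libraries the values were -2.47 (adjusted p = 0.0687) and 1.43 (adjusted p = 0.188), and the doxycycline call was also lost without the first doxycycline day 2.5 library (1.52, adjusted p = 0.164) and in a fit of the 2 groups alone (adjusted p = 0.0510). Rpl39, its X-linked partner in the exit tunnel, fell between the untreated days from 26.5 and 56.4 to 19.8 and 18.4 CPM (-1.11 ± 0.29). The Rpl39 fall was -0.47 (adjusted p = 0.211) without the second untreated day 2 library. It was also lost without either untreated day 2.5 or either doxycycline day 2 library, or with length and GC trends removed (adjusted p = 0.0612 to 0.128).

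Rps27l, a p53-inducible relative of Rps27, was the more counted of its pair. It was at 139 and 146 CPM in untreated day 2 and 88.5 and 78.9 CPM in untreated day 2.5 (-0.77 ± 0.13, edgeR adjusted p = 0.0015), and the call held in all 19 alternatives. Rps27 had 0.953 to 3.76 CPM over all libraries, no coding window of its own and no call in any comparison. Rpl22l1 stood at 8.29 and 7.48 CPM in doxycycline day 2.5 and at 18.2 and 17.6 CPM in Flk1-positive libraries, a rise of 1.18 ± 0.19 (edgeR adjusted p = 0.000197). Rpl22, its partner, was at 244 and 249 and then 277 and 293 CPM (0.21 ± 0.12, edgeR adjusted p = 0.177). The difference between the 2 genes' changes was not tested.

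Rpl7 was at 450 to 618 CPM over all libraries with no call, while Rpl7l1 was lowest in the Flk1-positive libraries at 119 and 111 CPM. Rpl3l, the form of striated muscle, had 0 to 15 counts per library and was not tested. Rps4x, on the X chromosome, fell between the untreated days from 390.5 and 391.8 to 282 and 261 CPM (-0.53 ± 0.11, edgeR adjusted p = 0.00572). The row Rps4y2, annotated as Rps4l and as a transcribed processed pseudogene on chromosome 6, was nearly as high and fell from 377 and 432 to 275 and 255 CPM (-0.61 ± 0.18). Of its 50-base windows 82.0% occur in no other annotated gene. Both calls were lost without either untreated day 2 library and without the second untreated day 2.5 library, and that of Rps4y2 also without the first (adjusted p = 0.0502 to 0.181). Of the 4 X-linked members (Rpl10, Rpl36a, Rpl39, Rps4x), 3 fell between the untreated days, beside 30.8% of all tested members and 10.3% of genes, and of these falls only that of Rpl10 held in every alternative. In Flk1-positive libraries 3 rose, beside 41% of members and 20.5% of genes.

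Members that departed from the rest were ranked by the range of their 5 group means after each library's median member was subtracted. The ranking is a description with no test, and rare genes enter it easily. Among the 8 widest were Rpl10l (2.66 log2 units), Rpl39l (2.48), Rpl29 (2.15), Rpl35 (2.15), Rpl30 (2.01), Rpl34 (1.83) and Rps26 (1.65). Rpl29 ran from -1.51 in the Flk1-positive group to 0.65 in doxycycline day 2.5 relative to the median member. Rps26, whose protein lines the mRNA exit channel, ran from 1.07 in the Flk1-positive group to 2.72 in untreated day 2.5. In both the Flk1-positive group was the lowest of the 5, as it was for 49 of 78 members on this scale, which subtracts a median level that was high in those libraries. Rpl30 had 158 counts in all and at most 0.977 CPM, with 2 libraries of one group up to 1.27 log2 units apart, and no call in any comparison. Rpl34 libraries of one group were up to 1.45 log2 units apart. The Rps26 fall in Flk1-positive libraries (-0.56 ± 0.14, edgeR adjusted p = 0.00565) lost its call without the second of them (-0.32, adjusted p = 0.0893).

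**Figure D5:**
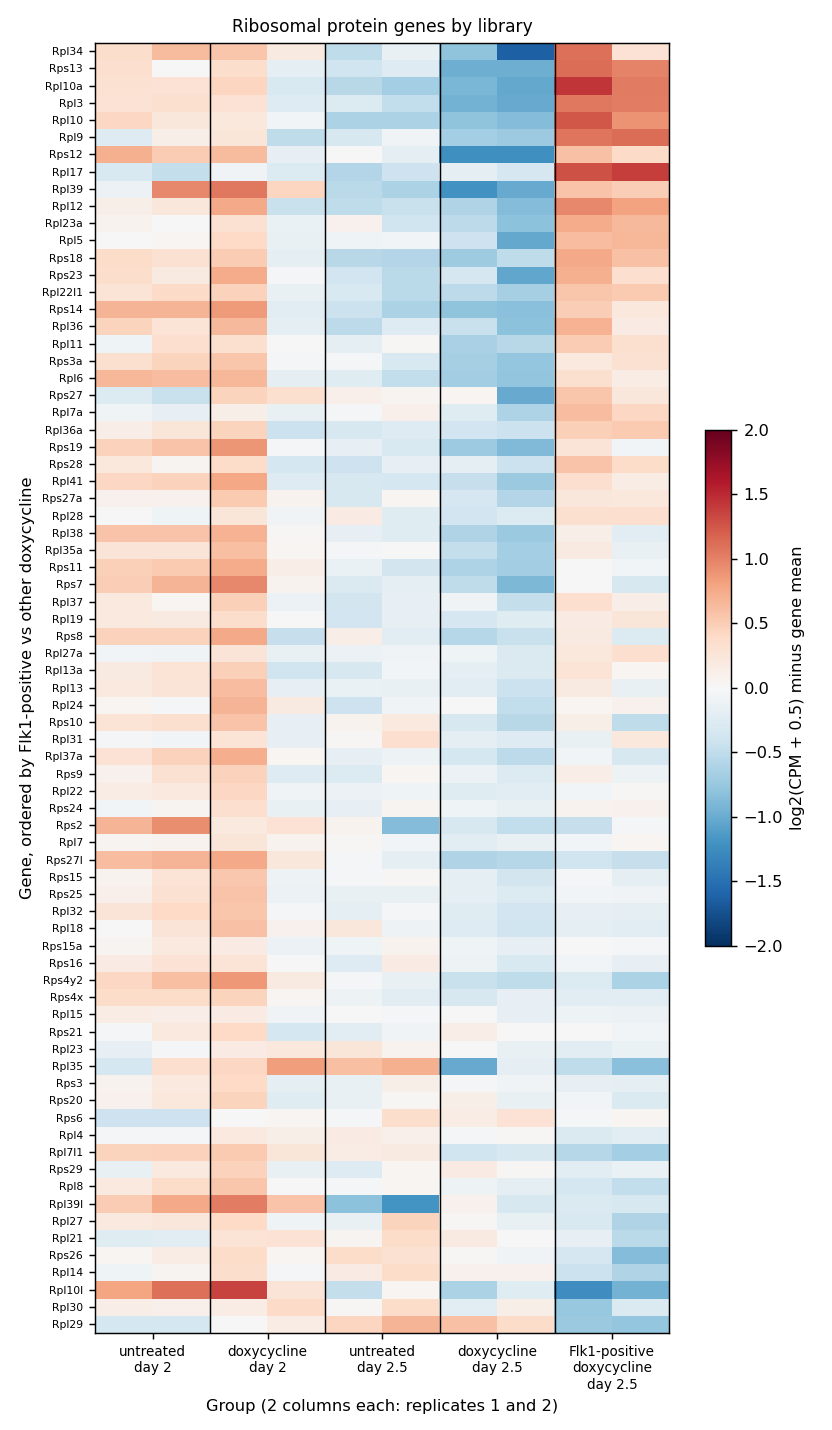
Log2(CPM + 0.5) of tested members minus each one's own mean over the 10 libraries (colour, from -2 in blue to 2 in red), with genes as rows ordered by the Flk1-positive comparison and libraries as columns in pairs by group. Rpl34, Rps13, Rpl10a, Rpl3 and Rpl10 at the top are red in the Flk1-positive pair, Rpl29 at the bottom is blue there, and the first doxycycline day 2 library is redder than the second in most rows.

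Proteins of the same ribosome whose symbols fall outside the rule were read from the same fit. Of 8 tested, among them Rplp0, Rplp1, Rplp2, Rpsa, Fau, Rpl36al and Gnb2l1 (now called Rack1), 0 passed edgeR's test in either doxycycline comparison. Between the untreated days 4 fell and 1 rose, beside 10.3 and 9.22% of all genes, and in Flk1-positive libraries 2 fell, beside 21.3%. Rpsa, a small-subunit protein also known as the laminin receptor, was the one that rose between the days and one of those that fell in Flk1-positive libraries. It went from 505 and 573 to 939 and 1257 CPM between the days (1.03 ± 0.12, edgeR adjusted p = 0.000156), and from 1174 and 1291 to 488 and 478 CPM in Flk1-positive libraries (-1.35 ± 0.13). Rpl29 had calls in the same directions.

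Most of the factors that assemble ribosomes in the nucleolus fell with doxycycline at day 2.5. Of 39 assembly factors tested 34 fell and 0 rose, with a median of -0.50 (log2), beside a background of 13.8% lower. Ddx21, a nucleolar helicase, fell by 0.90 ± 0.09 (edgeR adjusted p = 1.77e-06) and Nolc1, a nucleolar chaperone, by 0.78 ± 0.08. Of 13 genes of RNA polymerase I and its factors 7 fell, Polr1b by 0.93 ± 0.09. Of 76 mitochondrial ribosomal protein genes 36 fell, with a median of -0.34. Myc, a transcription factor that drives ribosome production, fell by 1.64 ± 0.09 (edgeR adjusted p = 1.16e-09) and Mycn by 1.05 ± 0.12. At day 2, where 3.11% of all genes rose and 1.56% fell, doxycycline raised 2 of the 39 assembly factors (Utp3 and Sbds), lowered 0 of them, and moved 0 of the polymerase I and 0 of the mitochondrial genes. The interaction with day was lower for 30 of the 39 assembly factors, 5 of the 13 polymerase I genes and 12 of the 76 mitochondrial ones, beside 5.24% of all genes. That term uses the doxycycline day 2 pair that disagreed. All counts of these lists are from the fit of all libraries, and how they move with a library left out is not given here.

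In Flk1-positive libraries the same lists were read beside the members' 32 higher and 8 lower calls and the 20.5% of all genes that were higher and 21.3% that were lower. Of the 39 assembly factors 8 were higher and 17 lower, Lyar with a fall of 1.07 ± 0.12. Of the 13 polymerase I genes 4 were higher and 1 lower. Of the 76 mitochondrial genes 11 were higher and 15 lower, with Mrpl24 up by 0.97 ± 0.13 and Mrpl42 down by 0.73 ± 0.09. Of 22 translation factors and other genes of the pyrimidine-start class, 4 were higher and 8 lower, with Eif4a2 up by 0.84 ± 0.11 and Pabpc1 down by 0.73 ± 0.11. The higher calls of the assembly and translation lists and the lower calls of the mitochondrial list were near those shares. Between the untreated days 14 of 39 assembly factors, 12 of 76 mitochondrial genes and 10 of the 22 fell, and 5, 3 and 2 rose, beside 10.3% of all genes lower and 9.22% higher. Differences between lists were not tested. Of 18 growth regulators tested 4 rose and 6 fell with doxycycline at day 2.5, beside 16.1 and 13.8% of all genes, among them Rps6ka1, a kinase of the RSK family, which rose by 1.06 ± 0.09.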

How the data were processed

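Total RNA of 10 embryoid body libraries was sequenced. The authors deposited raw counts per gene symbol. TopHat, HTSeq, DESeq2 and the build mm10 are named in the submitters' processing notes, without versions or roles, with the annotation, strand setting and handling of multiply aligned reads not given in the sources used here. The 92 spike-in rows were all 0 and left out.

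Counts were tested in edgeR 4.0.16 (R 4.3.3): filterByExpr (minimum count 10, total 15), TMM scaling, robust quasi-likelihood fit with 1 mean per group over all 10 libraries (5 residual degrees of freedom), and Benjamini-Hochberg adjustment over 14548 genes at 0.05. Standard errors are the log2 fold change divided by the square root of F. The script was tested on simulated counts. Alternatives used DESeq2 1.42.0, limma 3.58.1 (voom), other scaling, no filter, the compared groups alone, a replicate term, lowess trends on length and GC (span 0.3, fitted without members) removed as offsets, and each library left out. Fits with a lone library in a group assume that it varies like the other groups.

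Lengths and shared windows came from 1 main transcript per gene in GENCODE M21, with 22856 entries matched (1903 by an older symbol) and 80 of 80 members. Windows were compared on the same strand with exact matches. Members named were the paralogue pairs, up to 4 risen and 4 fallen per comparison by size, the 8 widest ranges, the extremes of level, the 5S and X-linked members, and from each other list up to 3 per comparison by adjusted p. Members and lists were chosen with earlier results of these data known. Some members that this rule names are counted but not reported by name here.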

Additional observations from a re-analysis of the deposited data

Results flagged for a closer look

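For 3 members the effect of doxycycline differed between day 2.5 and day 2 by the interaction term of edgeR's fit. These were 3.85% of members, near the 5.24% of all genes called lower in this fit. The terms were -1.98 (log2) for Rpl35, -0.53 for Rpl23 and -0.47 for Rpl7l1. Rpl35 was higher with doxycycline in both libraries at day 2 and lower in both at day 2.5. Rpl23 was at 135 and 147 CPM untreated and 170 and 176 CPM with doxycycline at day 2, and at 180 and 160 against 152 and 137 CPM at day 2.5. The Rpl7l1 effect was -0.06 at day 2 and -0.53 at day 2.5. Each of the 3 calls was lost under at least 1 alternative, with values of -1.64 for Rpl35 without the first untreated day 2 library, -0.39 (adjusted p = 0.0718) for Rpl23 with the length trend removed, and -0.46 (adjusted p = 0.0566) for Rpl7l1 in a fit of the compared groups alone.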

How the results depend on the processing

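Over 19 alternatives no named change reversed, and 34 of the 82 calls in 4 comparisons held in all of them, 27 of 40 in the Flk1-positive comparison, 5 of 28 between the untreated days, 2 of 11 for doxycycline at day 2.5 and 0 of 3 for the interaction. Counts of calls that moved by over 1.5 times were as follows. Without the filter on low counts, 1 member was higher and 1 lower with doxycycline at day 2, beside 609 and 437 of 18526 genes. With doxycycline at day 2.5, 31 were lower, beside 2535 of these genes. Between the untreated days 8 were higher, beside 1769, and for the interaction 1 was higher and 17 lower, beside 1210 and 1137. With the length trend removed, 2 were higher with doxycycline at day 2.5, beside 2417 of 14548 genes. In that fit 10 were higher between the untreated days and 1 for the interaction, beside 1828 and 1144. With length and GC trends removed, 1 was higher with doxycycline at day 2, beside 725 of 14548 genes. At day 2.5, 2 were higher and 17 lower, beside 2540 and 2946. Between the untreated days 10 were higher, beside 2053, and for the interaction 1 was higher and 5 lower, beside 1260 and 1531. TMM factors computed without the members gave 17 lower with doxycycline at day 2.5, beside 2385 of 14548 genes. DESeq2 gave 18 there and 5 lower for the interaction, beside 2221 and 900. A fit of the compared groups alone gave 31 lower with doxycycline at day 2.5, beside 2830 of 14143 genes. It gave 10 higher between the untreated days, beside 2299 of 13677 genes. The cause was not tested. Leaving out 1 library gave 0 to 21 higher and 0 to 26 lower with doxycycline at day 2, 0 to 2 and 3 to 34 at day 2.5, 26 to 42 and 5 to 10 in the Flk1-positive comparison, 3 to 8 and 3 to 36 between the untreated days, and 0 to 6 and 0 to 42 for the interaction. Each of these fits has a lone library in a group, and calls over all genes changed in them too. The ranges therefore do not show whether more members than other genes were called. That comparison was not tested. The same replicate numbers did not pair libraries (correlation of deviations -0.034 to 0.098). With a replicate block the interaction had 5 lower calls, and doxycycline at day 2.5 had 15, beside 859 and 2089 of 14548 genes. The share of counts was 1.47 to 2.28% without the 100 other genes of highest mean count in the total, 1.45 to 2.18% with the members outside the rule added, and 1.25 to 1.96% with pseudogene rows added. Members under about 1000 counts in all, such as Rpl30 and Rpl39l, had standard errors that only large changes could exceed.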
